A study of Hormonema carpetanum with 4 samples.

Results

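A pair of gene models was followed across the fermentation of Hormonema carpetanum: gene02800, whose best Swiss-Prot hit is the yeast aquaglycerol porin AQY3, and gene08949, whose best hit is the yeast sugar transporter STL1. They are 2 of the 10951 genes in the deposited expression table, were taken by their gene numbers, and were chosen by their TPM in all 4 libraries, so their differences are given as a description without a test. The fungus makes enfumafungin, a triterpene glycoside that inhibits glucan synthase of the fungal cell wall, and the study sought higher production through mutagenesis and changed fermentation conditions. RNA-seq was done on total RNA from mycelium. The day 14 libraries came from wild-type ATCC 74360 and from its mutant ENF-5-29, and the day 18 libraries from ENF-5-29 grown at 19 °C or 25 °C. These 4 groups hold 1 library each, the mutations of ENF-5-29 are not stated in the sources used here, and no temperature is given for day 14. The extraction text names 18 days for both strains whereas the sample titles name day 14 for the first pair of libraries, and the titles were followed.

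Glycerol is the main small solute with which many fungi balance their turgor, and it is also a carbon source. Aquaglyceroporins are membrane channels of the major intrinsic protein family that let glycerol, and often water, pass down its gradient. In Saccharomyces cerevisiae Stl1 works the other way: it is a plasma membrane symporter that drives glycerol inward with protons, and its gene is repressed by glucose and induced by osmotic shock. Glycerol inside the cell is made from dihydroxyacetone phosphate by glycerol-3-phosphate dehydrogenase and a phosphatase. It is used through glycerol kinase and the mitochondrial glycerol-3-phosphate dehydrogenase, or through a glycerol dehydrogenase and dihydroxyacetone kinase. The HOG pathway, a phosphorelay and kinase cascade that ends in the kinase Hog1, governs the response to osmotic stress in yeast. A name used here is that of the best database hit and does not show that the protein has that function in H. carpetanum.

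Values are TPM, a transcript abundance per gene length that is scaled to the same total in each library, so levels of different genes can be set side by side. The unit hides how many reads lie behind a value, and with 1 library per group no difference here has a replicate check. Each library held 8569 to 8942 genes at 1 TPM or more. A gene is called higher or lower where log2 of TPM plus 1 differed by at least 1, which is 2-fold on TPM plus 1. Calls were made among the genes that reached 1 TPM in 1 of the compared libraries. Where genes are counted as 2-fold higher or lower, this cutoff is meant. Folds given for single genes are plain TPM ratios and can differ from it at low values.

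AQY3 (gene02800) was low in 3 libraries and high in the mutant at 19 °C. It stood at 2.05 TPM in the wild type at day 14, 5.54 TPM in the mutant at day 14, 195.66 TPM in the mutant at day 18 and 19 °C, and 1.37 TPM in the mutant at day 18 and 25 °C. The 19 °C value was 35.3 times the next highest and exceeded 92.4% of all genes of that library, whereas the 25 °C value exceeded 21.7%.

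STL1 (gene08949) was high in the mutant at day 14 and at 25 °C and low in the other libraries. It stood at 3.04 TPM in the wild type, 205.68 TPM in the mutant at day 14, 6.54 TPM at 19 °C and 95.65 TPM at 25 °C. Its day 14 mutant value exceeded 92.2% of the genes of its library and its wild-type value 32.0%. Whether neighbours in either order differ beyond replicate error cannot be said with 1 library each.

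**Figure D1:**
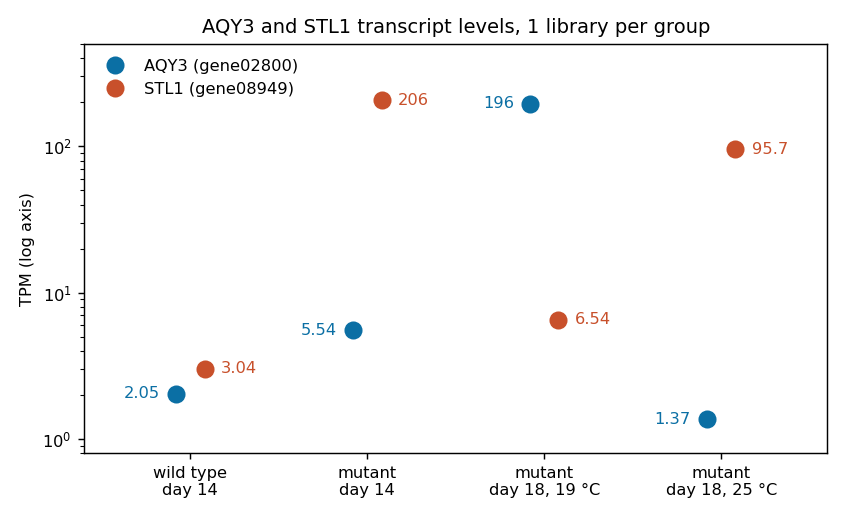
TPM of AQY3 (blue) and STL1 (orange) on a log axis in the 4 libraries, 1 point per library and no error bars since there are no replicates. AQY3 reaches 195.66 TPM only in the 19 °C library, where STL1 is at 6.54 TPM, and STL1 reaches 205.68 and 95.65 TPM in the mutant libraries where AQY3 is at 5.54 and 1.37 TPM.

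In the mutant libraries gene02800 and gene08949 were therefore high in different cultures. This does not hold for every model with these best hits. Another AQY3 hit, gene01923, had 213.16 TPM at 25 °C, and another STL1 hit, gene08920, had 195.84 TPM at 19 °C. STL1 had 37.1 times the TPM of AQY3 at day 14 and 69.8 times at 25 °C. At 19 °C AQY3 had 29.9 times the TPM of STL1. In the wild type both were low and their ratio, STL1 over AQY3, was 1.48. Their summed level was 5.09 TPM in the wild type, 211.22 TPM in the mutant at day 14, 202.2 TPM at 19 °C and 97.02 TPM at 25 °C. It was thus not constant over the mutant libraries. STL1 held most of the sum at day 14 and 25 °C, and AQY3 at 19 °C.

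The strain comparison at day 14 addresses what differs between ENF-5-29 and ATCC 74360. STL1 was 67.7-fold higher in the mutant, a log2 ratio of 5.68, and ranked 39 from the top of 9272 tested genes. AQY3 was 2.70-fold higher, a log2 ratio of 1.10, at rank 3514. Both genes thus count as higher, as did 40.7% of all tested genes, and the median over all of them was a log2 ratio of 0.64. The call for AQY3 was lost, at a log2 ratio of 0.50, when libraries were rescaled to bring that median near 0, and at 0.58 with a pseudocount of 5. After the rescaling the ratio of STL1 was 4.98.

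The comparison of 19 °C with 25 °C at day 18 addresses the temperature of the fermentation. AQY3 was 143-fold higher at 19 °C, a log2 ratio of 6.37, and ranked 10 from the top of 9064 tested genes, of which 10.9% were higher. The 25 °C value behind this fold is 1.37 TPM, so the size of the fold rests on a low denominator. STL1 was 14.6-fold lower at 19 °C, a log2 ratio of -3.68, and ranked 75 from the bottom, where 21.4% of tested genes were lower. Over all tested genes the median was -0.21.

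The mutant was also set against its own day 14 library, which both day 18 comparisons share. At 25 °C both genes were lower than at day 14, AQY3 with a log2 ratio of -1.46 and STL1 with -1.10, among 24.4% of 9236 tested genes that were lower. Neither call held under every setting, since STL1 was at -0.73 after rescaling by the median ratio and AQY3 at -0.73 with a pseudocount of 5. At 19 °C AQY3 was 35.3-fold higher than at day 14, a log2 ratio of 4.91 and rank 9 of 9119, where 7.98% of genes were higher. STL1 was 31.4-fold lower, a log2 ratio of -4.78 and rank 10 from the bottom, where 27.9% of genes were lower. Age and temperature cannot be told apart in these values, since the day 14 temperature is not given.

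Signs that can go with RNA quality were examined in each of these comparisons, and did not move alike in all of them. They were followed by a list of genes for very long proteins and a list of genes for mostly short ones, which also caught some longer proteins such as COX15 (gene09971) and COX11 (gene06343). Between the strains, 5 of 15 tested long-list genes were higher in the mutant and 2 lower, and 11 of 48 short-list genes were higher and 12 lower. Of all tested genes, 40.7% were higher and 14% lower, and the long list's shares are near these. The short list's median log2 ratio was 0.02 against 0.64 for all tested genes. Its summed TPM was 82320 for the wild type against 37694 for the mutant. Much of that gap lay in the ribosomal protein genes gene01841 (24561 against 10448.5 TPM) and gene06825 (22503 against 5896.67 TPM). The list's median level did not share it, being 153.8 TPM for the wild type against 164.3 TPM for the mutant. The lower sum thus does not describe the short list as a whole.

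Between the temperatures, 8 of 15 long-list genes were lower at 19 °C and 0 higher, and 8 of 48 short-list genes were higher and 2 lower. Of all tested genes, 21.4% were lower and 10.9% higher. The summed level of the long list was 822.73 TPM in the cooler and 1560.44 TPM in the warmer culture, and that of the short list was 39882 and 33835 TPM. At 25 °C against day 14, 4 long-list genes were higher and 0 lower, while 3 short-list genes were higher and 12 lower. The shares of all tested genes there were 14.1% higher and 24.4% lower. At 19 °C against day 14, 0 long-list genes passed 2-fold, and 4 short-list genes were higher and 5 lower. Here 7.98% of all tested genes were higher and 27.9% lower. The part of these shifts in the differences of AQY3, STL1 and the glycerol genes was not tested.

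**Figure D2:**
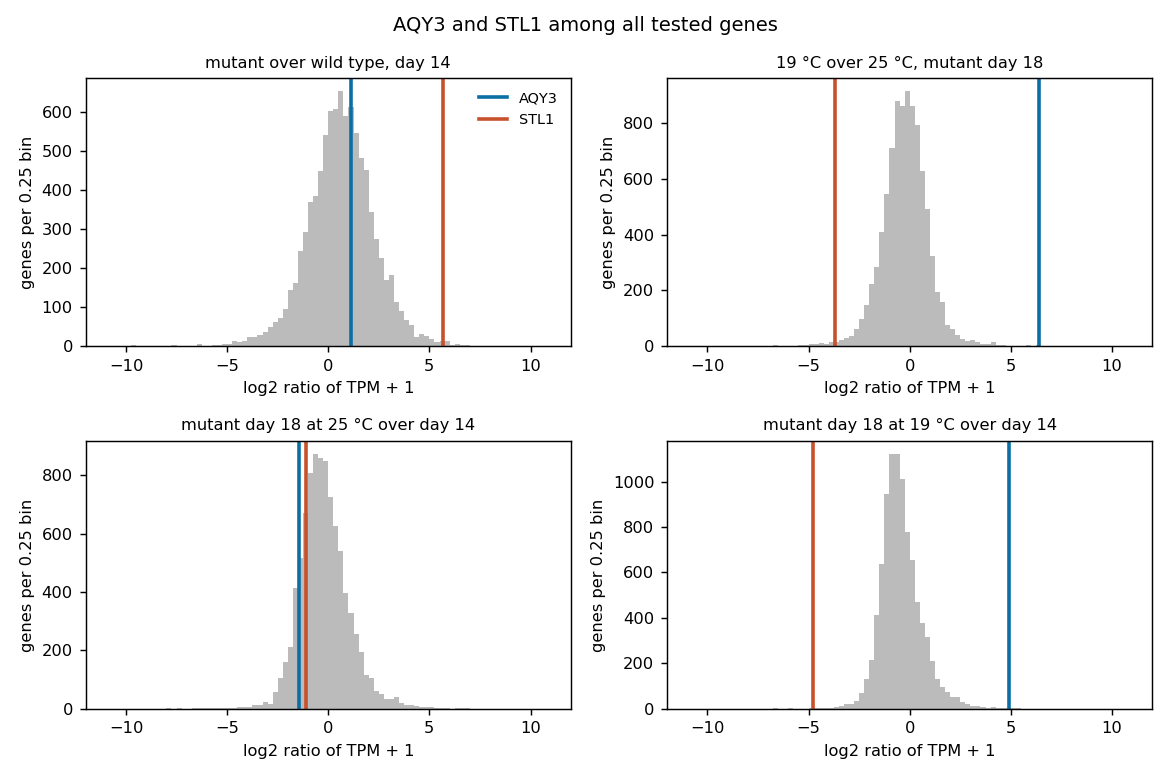
Histograms of the log2 ratio of TPM plus 1 over all tested genes (grey, genes per bin) in 4 comparisons, with AQY3 as a blue line and STL1 as an orange line. AQY3 lies at 6.37 and 4.91 in the comparisons that involve the 19 °C library and near the bulk of genes in the others, and STL1 lies at 5.68 between strains and at -3.68 and -4.78 where the 19 °C library is the numerator.

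How many genes shared these shapes was counted by rules set after the values were seen. Of 5588 genes at 10 TPM or more at 19 °C and above 0 in another library, 13 were at least 10 times as high there as in each other library. AQY3 had the third largest such ratio of these. A further 6 genes were at 10 TPM or more at 19 °C and listed at 0 in the other 3 libraries. Of 5631 genes at 10 TPM or more in both the mutant at day 14 and at 25 °C, and above 0 in the wild type or at 19 °C, 6 were in both at least 10 times as high as in the wild type and at 19 °C. STL1 was among them with a ratio of 14.6, at rank 5 of the 6. A further 1 gene was at 10 TPM or more in both these mutant libraries and listed at 0 in the other 2.

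AQY3 belongs to a family of 14 aquaporin genes in the table, of which 11 reached 10 TPM in a library. Together these 14 genes held 269.98 TPM in the wild type, 217.92 TPM in the mutant at day 14, 338.69 TPM at 19 °C and 334.08 TPM at 25 °C. AQY3 made up 0.759%, 2.54%, 57.8% and 0.410% of these sums. The summed level was thus nearly equal at both temperatures while the gene that held most of it differed.

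At 25 °C most of the sum came from gene01923, another model with a best hit to AQY3. It stood at 31.42 TPM in the wild type, 33.30 TPM in the mutant at day 14, 36.51 TPM at 19 °C and 213.16 TPM at 25 °C, so it was 5.84-fold higher at 25 °C than at 19 °C. The 5 models with a best hit to AQY3 summed to 253.47 TPM at 19 °C and 250.83 TPM at 25 °C. gene02800 held 77.2% of the first sum and 0.546% of the second.

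The remaining AQY3 hits were highest in the wild type. gene07735 had 64.97 TPM there and 11.63, 10.70 and 25.12 TPM in the mutant libraries of day 14, 19 °C and 25 °C. gene02130 stood at 45.79 TPM against 1.09, 8.82 and 8.24 TPM, and gene04684 at 30.22 TPM against 2.87, 1.78 and 2.94 TPM. An aquaporin-3 hit, gene09740, had the same order of strains, at 32.65 TPM in the wild type and 1.98 to 5.98 TPM in the mutant.

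The water channel hits AQY1 (gene01142) and AQY2 (gene07444) were higher in the mutant at day 14. Their wild-type values were 7.13 and 7.64 TPM and their day 14 mutant values 50.53 and 54.28 TPM, and they lay between 17.79 and 26.02 TPM at day 18. A second AQY2 hit, gene09202, was level between the strains at 37.01 and 35.92 TPM and had 22.19 TPM in the cooler and 7.30 TPM in the warmer day 18 culture. An aquaporin-3 hit, gene02501, ranged from 4.36 TPM in the wild type to 24.63 TPM at 25 °C.

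Another family member came close to AQY3 in shape at a far lower level. gene00856, a further aquaporin-3 hit, stood at 0.30 TPM in the wild type, 1.09 TPM in the mutant at day 14, 10.34 TPM at 19 °C and 0.22 TPM at 25 °C. It had the same order of libraries as AQY3, as did 1.86% of 7356 genes at 10 TPM or more in any library. Between the strains 4 of 13 tested aquaporins were higher in the mutant and 4 lower, where 40.7% of all tested genes were higher and 14% lower. Between the temperatures 3 of 12 were higher at 19 °C and 3 lower, beside 10.9% and 21.4% of all tested genes. The medians of the family were -0.04 and -0.25, against 0.64 and -0.21 for all tested genes.

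**Figure D3:**
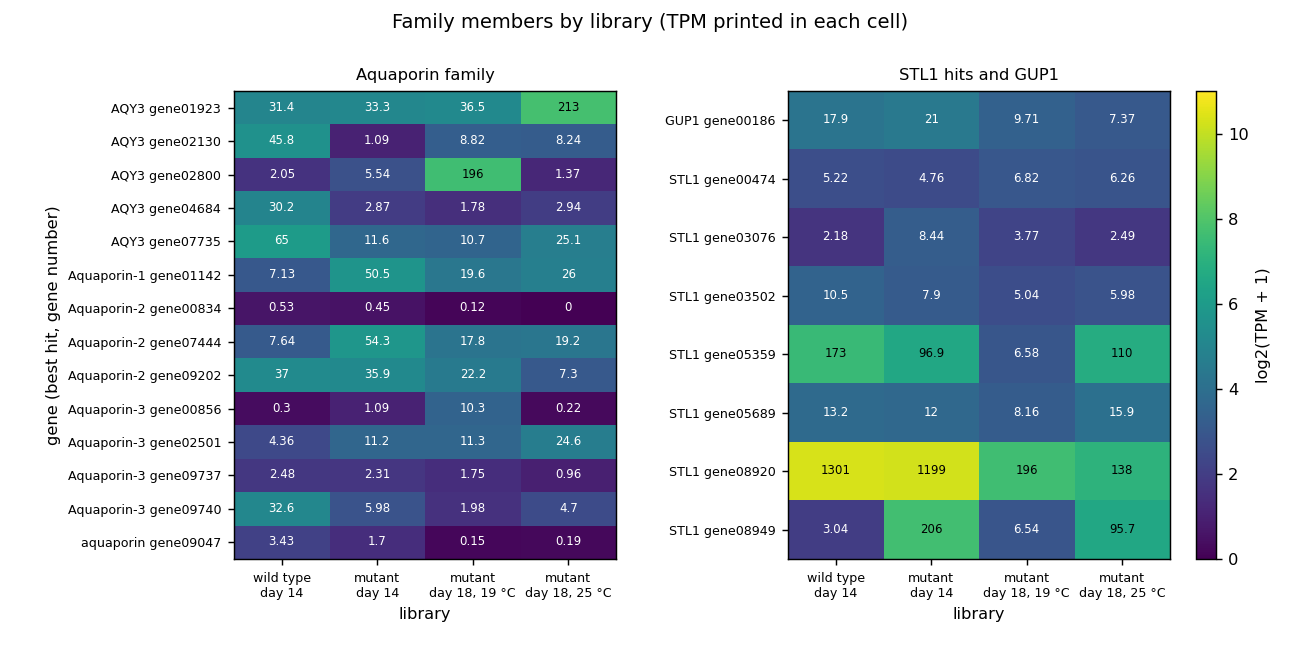
Heat maps of log2 of TPM plus 1 for the 14 aquaporin genes (left) and for the 7 STL1 hits with GUP1 (right) in the 4 libraries, with TPM printed in each cell. AQY3 gene02800 stands out at 19 °C and gene01923 at 25 °C on the left, and on the right the abundant gene08920 contrasts with gene08949, which is high in the mutant at day 14 and at 25 °C.

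STL1 was not the most abundant model with a best hit to this transporter. Of 7 such models, gene08920 was highest in every library, at 1300.89 TPM in the wild type, 1198.79 TPM in the mutant at day 14, 195.84 TPM at 19 °C and 137.73 TPM at 25 °C. It was level between the strains and was 6.12-fold and 8.70-fold lower at day 18 than in the mutant at day 14. gene08949 made up 0.202% of the summed TPM of the 7 models in the wild type, 13.4% in the day 14 mutant, and 2.81% and 25.6% in the cooler and warmer day 18 cultures.

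A further STL1 hit, gene05359, was also low at 19 °C, with 173.42 TPM in the wild type, 96.90 TPM in the mutant at day 14, 6.58 TPM at 19 °C and 109.64 TPM at 25 °C. Unlike gene08949 it was high in the wild type. gene05689 ranged from 8.16 to 15.91 TPM and gene03502 from 5.04 to 10.47 TPM, while gene00474 and gene03076 stayed under 10 TPM. The list for proton-coupled glycerol uptake also held GUP1 (gene00186), a membrane-bound O-acyltransferase whose older name is glycerol uptake protein, at 7.37 to 20.99 TPM. Of its 8 members, 2 were higher and 0 lower in the mutant at day 14 (median -0.11), and 0 were higher and 2 lower at 19 °C than at 25 °C (median -0.05). Over all tested genes the shares higher and lower were 40.7% and 14% between the strains and 10.9% and 21.4% between the temperatures.

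A wider list of sugar and polyol carriers, matched by name or orthology number, also caught hits to quinate permeases and UDP-galactose transporters (gene04666, gene09212). Among its 59 tested genes, STL1 had one of the largest differences between the strains. Its log2 ratio of 5.68 came first, just above the 5.61 of a myo-inositol transporter hit (gene08365), at 0.72 TPM in the wild-type library and 83.18 TPM in the mutant. By the plain TPM fold, and with a pseudocount of 0.1, STL1 came after both gene08365 at 116-fold and a quinate permease hit (gene06044) at 180-fold, each against a wild-type value under 1 TPM. Of the 59 genes, 28 were higher and 2 lower in the mutant, beside 40.7% and 14% of all tested genes. The lowest, at -2.11, was a hit to the low-affinity glucose transporter HXT1 (gene10408), which had 4897.36 TPM in the wild-type library against 1135.31 TPM in the mutant. Between the temperatures 8 of 58 were higher at 19 °C and 11 lower, beside 10.9% and 21.4% of all tested genes, and STL1 ranked 3 from the bottom. The extremes there were both quinate permease hits, gene01976 with 2.69 TPM in the cooler and 67.45 TPM in the warmer culture, and gene03949 at 18.15 and 0.86 TPM.

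The gene numbered directly after AQY3 is annotated as a glycerol kinase, the enzyme that traps glycerol inside the cell as glycerol-3-phosphate. This gene, gene02801, stood at 0.84 TPM in the wild type, 101.67 TPM in the mutant at day 14, 101.70 TPM at 19 °C and 20.93 TPM at 25 °C. It was 121-fold higher in the mutant at day 14, against a low wild-type value, and 4.86-fold higher at 19 °C than at 25 °C. Both genes were thus higher at 19 °C than at 25 °C, but at day 14 the mutant had the kinase high and AQY3 at 5.54 TPM. Coordinates and strands are not stated in the sources used here, so only the order of the numbers can be stated.

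The other gene numbers beside AQY3 did not share its 19 °C value. On the lower side, a lectin-like gene (gene02797) lay between 144.94 and 222.79 TPM, a TIM13 hit (gene02798), a small chaperone of mitochondrial import, between 15.53 and 80.68 TPM, and gene02799, which has no named hit, between 4.08 and 11.13 TPM. On the upper side, a TEL2-interacting protein hit (gene02802) lay between 7.49 and 21.42 TPM and a ubiquitin ligase hit (gene02803) between 4.63 and 26.96 TPM.

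Beside STL1, the next gene number was the only neighbour within 3 numbers to be over 10-fold higher in the mutant at day 14. This gene, gene08950, with a best hit to the bacterial protein YcbX, stood at 15.07 TPM in the wild type, 177.27 TPM in the mutant at day 14, 72.12 TPM at 19 °C and 81.59 TPM at 25 °C. A phosphotyrosine phosphatase hit (gene08946) lay between 6.22 and 42.43 TPM, a chitin synthase hit (gene08947), which makes cell wall chitin, lay between 5.26 and 70.69 TPM, and gene08948 between 0.29 and 5.81 TPM. A mitochondrial ribosomal protein (gene08951) lay between 208.14 and 353.17 TPM and an RNA-binding protein hit (gene08952) between 6.85 and 40.46 TPM.

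**Figure D4:**
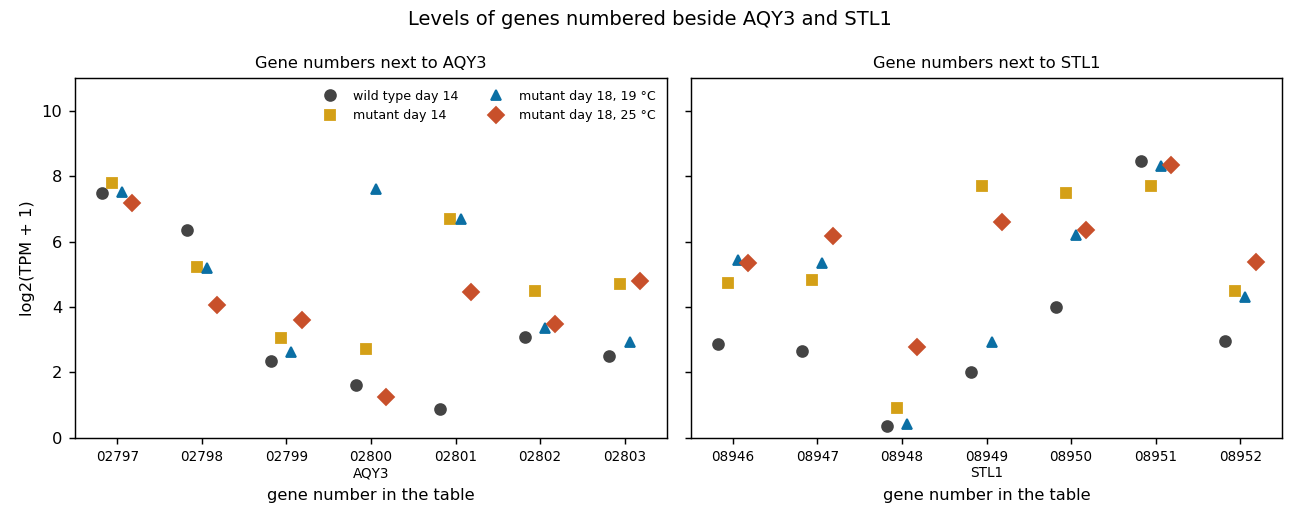
Log2 of TPM plus 1 for the genes within 3 gene numbers of AQY3 (left) and STL1 (right), with 1 symbol per library. At gene02801, next to AQY3, the mutant at day 14 and at 19 °C lie together at 101.67 and 101.70 TPM above the wild type at 0.84 TPM, whereas at AQY3 itself only the 19 °C library is high.

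Most genes for glycerol breakdown were higher in the mutant at day 14. Of 12 tested members of this list, 7 were higher and 1 lower, where 40.7% of all tested genes were higher and 14% lower, and the median log2 ratio was 1.67 against 0.64 for all tested genes. The largest differences were those of the kinase gene02801 and of dihydroxyacetone kinase genes, whose enzyme feeds dihydroxyacetone into glycolysis.

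Among these, gene04737 stood at 4.99 TPM in the wild type, 318.56 TPM in the mutant at day 14, 34.89 TPM at 19 °C and 88.91 TPM at 25 °C. gene07392 stood at 4.67, 142.03, 28.55 and 78.53 TPM in the same libraries, and gene04738, numbered next to gene04737, at 24.67, 365.50, 85.20 and 168.59 TPM. All 3 were highest in the mutant at day 14, next at 25 °C, then at 19 °C, and lowest in the wild type, which is also the order of STL1. Another dihydroxyacetone kinase, gene10163, varied less, from 106.48 TPM at 25 °C to 211.92 TPM in the mutant at day 14, and a further model, gene02176, was listed at 0 in every library.

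The same order held for a second glycerol kinase and a glycerol 2-dehydrogenase. The kinase gene00127 stood at 29.05 TPM in the wild type, 118.96 TPM in the mutant at day 14, and 41.14 and 94.93 TPM at 19 °C and 25 °C. Values of the dehydrogenase gene01337 were 39.49, 235.37, 62.03 and 126.97 TPM. In all, 5 of the 12 members at 10 TPM or more, which is 41.7%, had the order of STL1, as did 12.2% of 7356 genes at that level.

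Other members went different ways. The mitochondrial glycerol-3-phosphate dehydrogenase gene04180 stood at 38.46 TPM in the wild type, 99.47 TPM in the mutant at day 14, 22.00 TPM at 19 °C and 37.23 TPM at 25 °C. For gene01485, a second glycerol 2-dehydrogenase hit, 348.91 TPM in the wild type compared with 33.99 TPM in the mutant at day 14, a 10.3-fold lower level. The reductase hit gene10091, named in the nonredundant database as a glycerol dehydrogenase, had 14.63 TPM in the cooler and 5.73 TPM in the warmer culture. The list also caught a D-galacturonate reductase (gene03967), at 8.50 to 43.62 TPM, and a diacylglycerol kinase (gene09746), at 50.22 to 197.86 TPM, which do not act on free glycerol.

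Between the temperatures, 4 of the 12 glycerol breakdown genes were lower at 19 °C and 2 higher, beside 21.4% and 10.9% of all tested genes, with a median log2 ratio of -0.80 against -0.21. The higher ones were the kinase gene02801 and the reductase gene10091, and the lower ones were gene00127, gene01337, gene04737 and gene07392. Against the mutant at day 14, 7 were lower and 1 higher at 19 °C, where 27.9% of all tested genes were lower and 7.98% higher. At 25 °C 6 were lower and 1 higher, where 24.4% of all were lower and 14.1% higher. The higher one was the diacylglycerol kinase both times.

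The genes for glycerol synthesis did not move together. Glycerol-3-phosphate dehydrogenase (gene02417), the first step, stood at 26.49 TPM in the wild type, 13.16 TPM in the mutant at day 14, and 15.78 and 20.78 TPM at 19 °C and 25 °C. The glycerol-1-phosphate phosphatase hit (gene00651), the second step, was 25.7-fold higher in the mutant at day 14, at 1.32 and 33.93 TPM, and stood at 10.57 and 15.52 TPM at 19 °C and 25 °C.

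**Figure D5:**
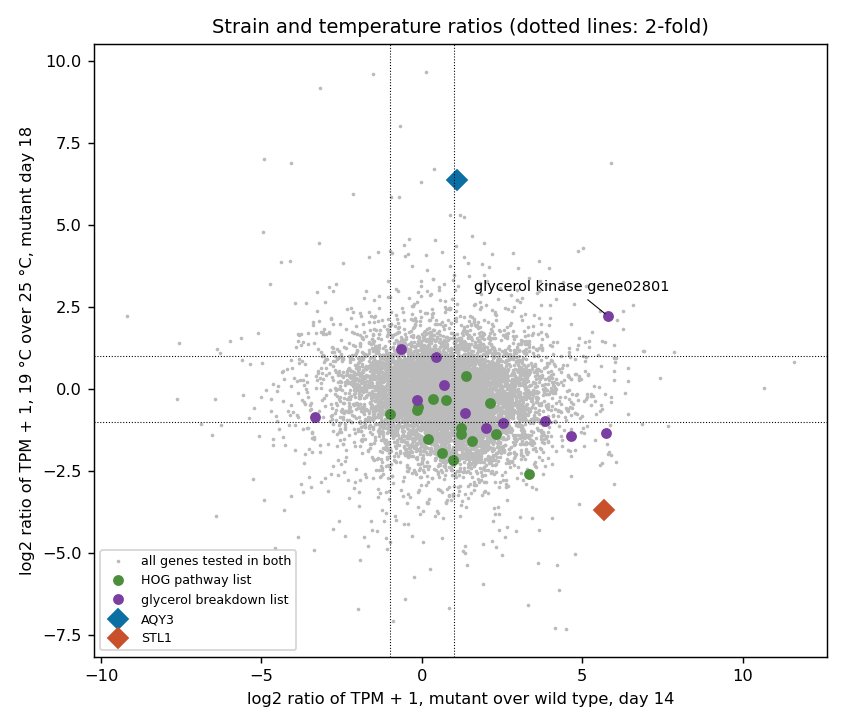
Log2 ratio of TPM plus 1 between the strains at day 14 (x axis) against that between 19 °C and 25 °C at day 18 (y axis), which use different libraries, for all genes tested in both (grey), the glycerol breakdown list (purple), the HOG pathway list (green), AQY3 (blue diamond) and STL1 (orange diamond). STL1 lies at the lower right, at 5.68 and -3.68, AQY3 at the top, at 1.10 and 6.37, and the glycerol kinase gene02801 at the right above 2-fold in both.

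Of 16 tested genes of the HOG pathway list, 9 were lower at 19 °C than at 25 °C and 0 higher. Between the strains, of 16 tested members, 7 were higher in the mutant at day 14 and 1 lower. The shares are near the 40.7% higher and 14% lower of all tested genes, the median log2 ratio was 0.86, and rescaling by the median ratio left 3 higher. Hog1 (gene06384), the kinase at its end, stood at 46.96 TPM in the wild type, 209.76 TPM in the mutant at day 14, and 127.95 and 172.51 TPM at 19 °C and 25 °C. The PBS2 hit (gene09940), which phosphorylates Hog1 in yeast, stood at 5.57, 66.05, 42.87 and 262.44 TPM.

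The 9 that were lower at 19 °C were of 16 tested, where 21.4% of all tested genes were lower and 10.9% higher. The list's median was -1.27 against -0.21 for all tested genes. PBS2 was 6.12-fold lower at 19 °C. The kinase above it, a wis4 or SSK2 hit (gene07363), had 23.21 TPM in the cooler and 61.59 TPM in the warmer culture, and the osmosensing histidine kinase hits gene06668 and gene06580 stood at 20.27 and 53.22 TPM and at 15.86 and 74.89 TPM. The MST11 and MST50 hits (gene09662, gene10789), a kinase and its adapter, and the regulator SKN7 (gene00804) were also lower at 19 °C, with log2 ratios of -1.58, -1.19 and -1.53. So were a ste50 hit (gene04749) and a high osmolarity sensitivity hit (gene08271), with -2.29 and -1.94. The last of these is matched by name and is not one of the core steps of the pathway, and without it 8 were lower.

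Other HOG members differed less by temperature. Hog1 had a log2 ratio of -0.43, the sensor hits SHO1 (gene08857) and MSB2 (gene03323) had -0.28 and -0.62, and a gene assigned to OPY2 (gene07862) had -0.33. The phosphorelay protein YPD1 hit (gene09507) had 0.40, with 312.17 TPM in the cooler and 236.34 TPM in the warmer culture, and the response regulator hit mcs4 (gene07442) had -0.76. The list also caught the ste11 transcription factor of fission yeast (gene00768), which shares a name with the kinase Ste11. Against the mutant at day 14, 7 of 17 tested HOG members were lower at 19 °C and 1 higher. The shares of all tested genes were 27.9% and 7.98%, and the medians were -0.64 for the list and -0.55 for all. At 25 °C 0 were lower than at day 14 and 5 higher, beside 24.4% and 14.1% of all tested genes. The medians there were 0.02 and -0.30. Between the temperatures, AQY3 was high in the library where 9 members of this list were lower than at 25 °C. The long-list genes, of which 8 of 15 were lower, moved the same way, and their part in the HOG counts was not tested.

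Other solutes of osmotic balance were described by lists. Of 19 tested genes for mannitol, trehalose and arabitol metabolism, 9 were higher in the mutant at day 14 and 4 lower, beside 40.7% and 14% of all tested genes, and the median was 0.81 against 0.64. With genes under 10 TPM in both libraries set aside, the ends were acid trehalase (gene05239), with 3.33 TPM in the wild-type library and 55.40 TPM in the mutant, and mannitol 2-dehydrogenase (gene03132), at 26.03 and 12.36 TPM. Between the temperatures 1 of 17 was higher at 19 °C and 3 lower, beside 10.9% and 21.4% of all tested genes. The ends there were trehalose phosphorylase (gene00125) with 288.80 TPM in the cooler and 119.28 TPM in the warmer culture and a mannitol dehydrogenase hit (gene04859) at 0.71 and 61.59 TPM.

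Of 14 tested genes for sodium and potassium transport, 5 were higher in the mutant at day 14 and 1 lower, beside 40.7% and 14% of all tested genes, and their median of 0.64 equalled that of all tested genes. Among those at 10 TPM or more, a potassium channel beta subunit hit (gene09235) had the highest ratio, with 37.20 TPM in the wild-type library and 368.71 TPM in the mutant, and a sodium and proton exchanger gene (gene05379) the lowest, at 95.58 and 74.18 TPM. Between the temperatures 1 of 13 was higher at 19 °C and 5 lower, beside 10.9% and 21.4% of all tested genes, and both extremes were hits to the outward potassium channel TOK1, gene02468 with 15.88 TPM in the cooler and 6.96 TPM in the warmer culture and gene05826 at 9.57 and 51.19 TPM.

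Genes with a profile most like each of the pair were found by the Euclidean distance between centred profiles of log2 of TPM plus 1 over the 4 libraries, over 5219 other named genes that reached 10 TPM somewhere. AQY3 and STL1 lay 8.16 apart. Nearest to AQY3 were an NmrA-like gene (gene07737), at a distance of 1.40 and at 86.60 TPM at 19 °C against 2.70 to 3.87 TPM elsewhere, and a second NmrA-like gene, a himF hit (gene05081), at 1.65. They were followed by the acetyltransferase hit aurG (gene06241) at 1.66, an RTM1 hit (gene10351) at 1.79 and a nitrite reductase hit (gene06170) at 1.87, all of them highest at 19 °C.

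Nearest to STL1 was a cutinase (gene05570), which cuts the plant polymer cutin, at a distance of 1.26, with 2.96 TPM in the wild type, 221.35 TPM in the mutant at day 14, 9.90 TPM at 19 °C and 42.08 TPM at 25 °C. A carboxylic acid transporter hit (gene05915) followed at 1.32, then a cytochrome P450 gene (gene08363) at 1.51. The next was efuJ (gene04130), the gene of the enfumafungin cluster annotated for self-resistance, at 1.66, with 71.60, 921.37, 90.06 and 1786.56 TPM. The last of the 5 was the dihydroxyacetone kinase gene04737, at 1.73. Among them the transporter and efuJ were highest at 25 °C and the others in the mutant at day 14.

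Genes of a list for spores and other cell forms were mostly higher in the mutant at day 14. Of 11 tested, 8 were higher and 1 lower, beside 40.7% and 14% of all tested genes. The list was matched by name or orthology number, and not all members are limited to spores. One is veA (gene07829), annotated as a regulator of development and secondary metabolism. The summed level of the list's 13 genes was 191.29 TPM in the wild type and 1114.76 to 1247.71 TPM in the mutant libraries. The conidiation-specific protein 10 hit (gene06873) held most of the mutant sums, and without it the list summed to 181.38 TPM in the wild type, and to 559.5, 224.51 and 479.29 TPM in the mutant libraries of day 14, 19 °C and 25 °C. The list's median level was 4.35, 31.13, 9.50 and 26.75 TPM in the same order, so this median was lower at 19 °C, where AQY3 was high, than in the other mutant libraries. Not all members followed it. In the mutant libraries of day 14, 19 °C and 25 °C, gene06873 had 688.21, 924.1 and 635.47 TPM. An abaA hit (gene06725) had 3.75, 4.55 and 1.89 TPM there, so both were highest at 19 °C. The developmental regulator wetA (gene02208) was near 0 in every library, at 0 in the wild type and at 19 °C, 0.11 TPM in the mutant at day 14 and 0.06 TPM at 25 °C. A DIT1 hit (gene05643), named for spore wall maturation, had 0.35 and 154.87 TPM and the highest strain ratio, and a sporulation kinase hit (gene10877) had 90.56 and 31.13 TPM and the lowest. Between the temperatures 0 of 10 were higher at 19 °C and 4 lower, beside 10.9% and 21.4% of all tested genes. Their part in the STL1 and AQY3 differences was not tested, and a change in the make-up of the mycelium cannot be told apart from a change in RNA per cell.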

How the data were processed

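Total RNA of mycelium from fermentation broth was made into mRNA sequencing libraries, per the labels' protocols. The authors deposited 1 table of TPM, rounded to 2 decimals, whose columns each sum to 1000000 within rounding. The aligner, counting tool, genome build, annotation, gene lengths and read depths are not stated in the sources used here, so no counting interval is given. Each column carries the library name of its sample in the labels.

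Log2 ratios were computed with a pseudocount of 1, with Python 3.11.15, pandas 2.3.3 and numpy 2.4.6. No p-value was computed with 1 library per group. The calling and rescaling steps were run on simulated data with large changes planted in well-expressed genes. That run checks the code only and does not bear on values near 1 TPM or on replicate error. The members, and the 11 gene lists matched by name or orthology number, were chosen with earlier results of these data known. Lists kept every match. Named genes were the members, genes at 10 TPM or more of the aquaporin, STL1, glycerol and HOG lists, the extremes at 10 TPM or more of other lists, the 5 nearest named profiles, and 3 gene numbers on each side. The counts of genes sharing a shape or an order of libraries, and members under 10 TPM, were added after values were seen. So were the genes wetA, ste11, gene06873, COX15, COX11, gene08365, gene06044, gene01841 and gene06825. No other gene has the same 4 values as AQY3 or STL1. No sequence is shown, because none of the files used here holds one.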

Additional observations from a re-analysis of the deposited data

Results flagged for a closer look

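AQY3 (gene02800) moved in opposite directions from day 14 to day 18 of the mutant, up at 19 °C and down at 25 °C. Its log2 ratios were 4.91 and -1.46, a difference of 6.37, and 48 of 9042 genes, 0.531%, were likewise 2-fold higher at 19 °C and 2-fold lower at 25 °C. The fall of AQY3 at 25 °C was from 5.54 to 1.37 TPM, both low values. With a pseudocount of 5 the log2 ratio of AQY3 became -0.73, and the call was lost. The histidine kinase hit gene06580 (two-component system protein B) went the other way, at -1.06 and 1.11, a difference of -2.17, and its 19 °C value became -0.53 after rescaling by the median ratio. The difference between the temperatures was not tested in either case, as each value is 1 library and both share the day 14 library.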

How the results depend on the processing

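The log2 ratios of AQY3 and STL1 kept their sign under pseudocounts of 0.1 and 5, rescaling by the median ratio and rescaling without the 20 highest genes. The call for AQY3 was lost between the strains with a pseudocount of 5 (0.58) and after median rescaling (0.50). It was also lost between 25 °C and day 14 with a pseudocount of 5 (-0.73). The call for STL1 was lost between 25 °C and day 14 after median rescaling (-0.73). Sizes moved by over 1.5-fold for AQY3 between temperatures (7.06 with a pseudocount of 0.1, 4.98 with 5) and between 19 °C and day 14 (4.25 with 5). They did so for STL1 between the strains (4.71 with 5, 4.98 after median rescaling) and between 19 °C and day 14 (-4.19 with 5).

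Counts over all genes moved as follows. Median rescaling gave 2281 higher and 2395 lower genes between the strains, against 3773 and 1301. Higher genes then made up 48.8% of the calls in place of 74.4%. It gave 1318 higher and 1584 lower genes between the temperatures, a share of 45.4% in place of 33.7%. Between 25 °C and day 14 it gave 1365 lower genes and a share of 57.0% in place of 36.7%. Between 19 °C and day 14 it gave 1408 higher and 970 lower genes and a share of 59.2% in place of 22.2%. It shifted the ratios by a median of -0.73, 0.18, 0.35 and 0.53 in these comparisons. A pseudocount of 5 gave 642 higher and 1280 lower genes between the temperatures and 1484 lower between 19 °C and day 14. A 4-fold threshold gave 1677 higher and 456 lower between the strains, 234 and 478 between the temperatures, 407 and 432 between 25 °C and day 14, and 217 and 330 between 19 °C and day 14.

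List counts were recomputed by settings chosen after seeing the data. Between the strains, median rescaling left 2 aquaporins, 1 STL1-list gene and 3 HOG genes higher, and made 2 STL1-list genes and 2 glycerol breakdown genes lower. A pseudocount of 5 left 2 aquaporins and 1 STL1-list gene higher and 0 HOG genes lower. Between the temperatures, both settings left 1 aquaporin lower, median rescaling left 2 glycerol breakdown genes lower, and a pseudocount of 5 left 1 higher. Without its 2 members of another function, the glycerol breakdown list had 0 higher genes in both comparisons with day 14. Without its 2 members outside the core pathway, the HOG list had 8 lower genes between the temperatures. No paired analysis was possible because each group has 1 library. The cause of these shifts was not tested beyond what each setting does by construction. Read depth is unknown, so the error of values near 1 TPM, on which the largest folds rest, cannot be given.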
